A study of Mus musculus with 61 samples.

Results

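The 10 ligand genes of the tumour necrosis factor (TNF) superfamily described here are Lta, Ltb, Tnf, Fasl, Cd40lg, Tnfsf4, Tnfsf8, Tnfsf10, Tnfsf11 and Tnfsf14. They were taken by symbol out of the 24421 genes counted in 61 mouse RNA-seq libraries, and all 10 passed the minimum of 10 reads in every fit. The study set 2 leukemic changes of a tyrosine in the SH2 domain of the transcription factor STAT5B, Y665F and Y665H, against unmutated STAT5B and against N642H, an activating change. The labels give the strain as C57BL/6 and the age as 2 months for all libraries, and the methods name C57BL/6N for the edited mice.

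In the first experiment, naive CD4+ T cells came from pooled lymph nodes and spleens of WT mice or of mice whose floxed Stat5a and Stat5b had been deleted by Cre under the Cd4 promoter, here called Stat5a/b-null. That promoter is active from the stage at which thymocytes carry both CD4 and CD8, so the deletion was not limited to CD4+ cells. All CD4+ cells were activated through the T cell receptor and CD28, transduced with a retroviral vector that was empty or carried STAT5B, N642H, Y665H or Y665F, and kept with IL-2 for 48 h, and GFP+ cells were then sorted and sequenced. This gave 10 groups of 3 libraries. The genotype entry of the labels names floxed Stat5a/b for all 30 of these libraries, so WT or null background was read from the titles. The second experiment held total splenic T cells of WT, Y665H knock-in and Y665F knock-in mice for 24 h with IL-2 and IL-7. Each genotype had 4 libraries, beside 3 libraries of Y665F cells without interleukin, whose hours of culture are not given in the labels. Y665H replicate 4 equalled replicates 1 and 2 added together, in reads on genes and in each of the genes looked at for this. These were Cd4, Cd8a, Cd8b1, Stat5a, Stat5b, Socs2, Cish and Il2ra. It was thus not a separate library, and Y665H splenic T cell values with n = 4 rest on replicates 1, 2 and 3 only. The third experiment gave 4 WT, 5 Y665H and 7 Y665F libraries of unstimulated spleen, titled splenocytes in the labels, whose tissue entry says spleen, and described as frozen spleen tissue in the methods, while the extraction text of the labels names mammary tissue. Here they are called spleens. A list of 7 stromal genes summed to 509 to 752 CPM in them, against 0.571 to 13.7 CPM in the splenic T cell libraries. Those libraries are of isolated T cells, so whether the spleen libraries hold whole tissue or isolated splenocytes is not settled. Y665H was made by base editing and Y665F with CRISPR/Cas9 and an oligonucleotide donor, and the zygosity of the mice sequenced was not given in the sources used here. The labels do not say that CD4+ or cultured T cell libraries of a group came from separate animals, so the p-values measure the spread between libraries, which may be technical. The splenic T cell fit counts the reads of Y665H replicates 1 and 2 again in replicate 4, so its p-values assume too many libraries.

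TNF superfamily ligands are type II membrane proteins or secreted proteins that act as trimers. They bind receptors that recruit TRAF adaptors and turn on NF-kB, or, where the receptor carries a death domain, start apoptosis. Lymphotoxin alpha, the product of Lta, is secreted as a trimer that binds the TNF receptors, or joins lymphotoxin beta, the product of Ltb, in a membrane complex that binds the lymphotoxin beta receptor and organises lymphoid tissue. Activated T cells are known sources of most of these ligands, and STAT5 is the transcription factor through which IL-2 and IL-7 act on T cells.

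Of the 10 genes, 3 stand side by side in the class III region of the mouse major histocompatibility complex, within 10913 bases of chromosome 17 (GRCm38, positions 35194439 to 35205351). Ltb lay at 35194439 to 35196320 on the plus strand, Tnf at 35199381 to 35202007 and Lta at 35203165 to 35205351, both on the minus strand. The gap between Tnf and Lta was 1157 bases and that between Ltb and Tnf 3060 bases. The other members were at chromosome 1, 161780689 to 161788495 (Fasl) and 161395409 to 161418410 (Tnfsf4), chromosome X, 57212143 to 57224042 (Cd40lg), chromosome 4, 63831308 to 63861347 (Tnfsf8), chromosome 3, 27317028 to 27342427 (Tnfsf10), chromosome 14, 78277445 to 78308043 (Tnfsf11) and chromosome 17, 57189492 to 57194177 (Tnfsf14). In this annotation no member overlapped a gene on the opposite strand. On the same strand, Lta overlapped Mir6974 and Ltb overlapped Mir6973a, and the effect of this on their counts was not tested.

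The 250 bases before the RefSeq start of transcription are shown for the 3 clustered genes, because these neighbours differed in how their levels moved. They are printed 5′ to 3′ on the strand of the gene, from RefSeq on GRCm38.p6, with the palindromic STAT motif TTCNNNGAA in capitals. The windows were chr17:35205352-35205601 for Lta, chr17:35194257-35194506 for Ltb and chr17:35202008-35202257 for Tnf. RefSeq starts Ltb further downstream than the gene positions above, so the end of the Ltb window lies inside the gene as given there.
Lta: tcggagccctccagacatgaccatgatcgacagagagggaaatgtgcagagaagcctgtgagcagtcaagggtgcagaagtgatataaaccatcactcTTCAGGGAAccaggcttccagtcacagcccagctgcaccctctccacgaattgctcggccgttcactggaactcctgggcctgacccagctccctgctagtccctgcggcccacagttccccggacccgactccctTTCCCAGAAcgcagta
Ltb: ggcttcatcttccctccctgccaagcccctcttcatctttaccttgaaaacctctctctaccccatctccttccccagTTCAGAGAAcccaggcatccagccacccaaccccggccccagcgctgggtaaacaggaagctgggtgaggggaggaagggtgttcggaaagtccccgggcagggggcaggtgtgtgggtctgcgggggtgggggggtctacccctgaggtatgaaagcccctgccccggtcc
Tnf: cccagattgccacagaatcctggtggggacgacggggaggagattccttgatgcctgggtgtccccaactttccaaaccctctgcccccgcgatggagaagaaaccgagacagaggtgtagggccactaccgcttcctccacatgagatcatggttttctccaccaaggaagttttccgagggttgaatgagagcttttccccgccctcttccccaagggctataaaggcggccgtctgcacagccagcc
The Lta window held the motif 2 times, the Ltb window 1 time and the Tnf window 0 times. The motif reads the same on both strands. Of 32841 RefSeq promoter windows of this length, 7.02% held it at least once and 0.317% at least 2 times. A match is a description of these letters, not a binding site. Of the 10 members, 8 matched the promoter table, and the windows of Fasl, Tnfsf8, Tnfsf10, Tnfsf11 and Tnfsf14 held 0 matches. Cd40lg and Tnfsf4 had no entry.

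Each CD4+ library held between 18825994 and 49850689 reads on genes, each splenic T cell library between 2017012 and 27394249, and each spleen library between 24203179 and 43330536. Of the splenic T cell libraries 3 were shallow, Y665H replicates 1 and 2 and Y665F replicate 3 with interleukins, at 3310342, 2017012 and 2851451 reads. Y665H replicate 4 held 5327354 reads, the same as replicates 1 and 2 together. Stat5b, the targeted gene, stood at 5.86 ± 3.39 CPM (counts scaled to library size; SD, n = 3) in null cells with the empty vector and between 217 and 315 CPM, as group means, with a STAT5B vector. In WT cells it was 201 ± 12.3 CPM with the empty vector. The CD4+ libraries held 3118 to 5069 CPM of a list of 10 T cell genes found in the files, and at most 0.449 CPM of Cd8a. Cd8b1 was at 5.69 to 20.4 CPM in them, with means of 17.5 CPM in null and 7.09 CPM in WT cells with the empty vector. In the splenic T cells the same sum ran from 2177 to 2986 CPM in WT, from 2154 to 2336 in Y665H and from 838 to 2305 in Y665F libraries with interleukins. The lowest, Y665F replicate 3, also held 578 CPM of 8 B cell genes and 1077 CPM of 9 erythroid genes, and replicate 4 held 161 and 84.9 CPM, against at most 104 and 59.4 CPM in WT, Y665H and interleukin-free libraries. In spleen, Y665H replicate 1 stood apart from the other Y665H libraries, with 769 CPM of erythroid genes against 3594 to 5126 CPM. Cell shares differed, and in bulk RNA fewer cells of a type and less RNA per cell cannot be told apart.

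Scaled to length, as mean CPM per kilobase of exon, Lta was the most abundant member in 4 of the 10 CD4+ groups, those with N642H or Y665F. The other 6 groups were led by Ltb. The level of Ltb ranged from 144 to 324 CPM per kilobase over CD4+ groups and that of Lta from 10.8 to 546. Tnfsf11, which encodes RANKL, the osteoclast differentiation factor, lay between 73.1 and 124 CPM per kilobase in the activated CD4+ cells and between 1.52 and 3.56 in splenic T cells. Tnfsf4, which encodes OX40 ligand, a costimulatory ligand, was likewise at 16.98 to 63.9 CPM per kilobase in CD4+ cells and at most 0.789 in splenic T cells or spleen. Tnfsf8, encoding CD30 ligand, led or came next to Ltb in the splenic T cells with interleukins, at 71.0 to 76.4 CPM per kilobase.

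**Figure D1:**
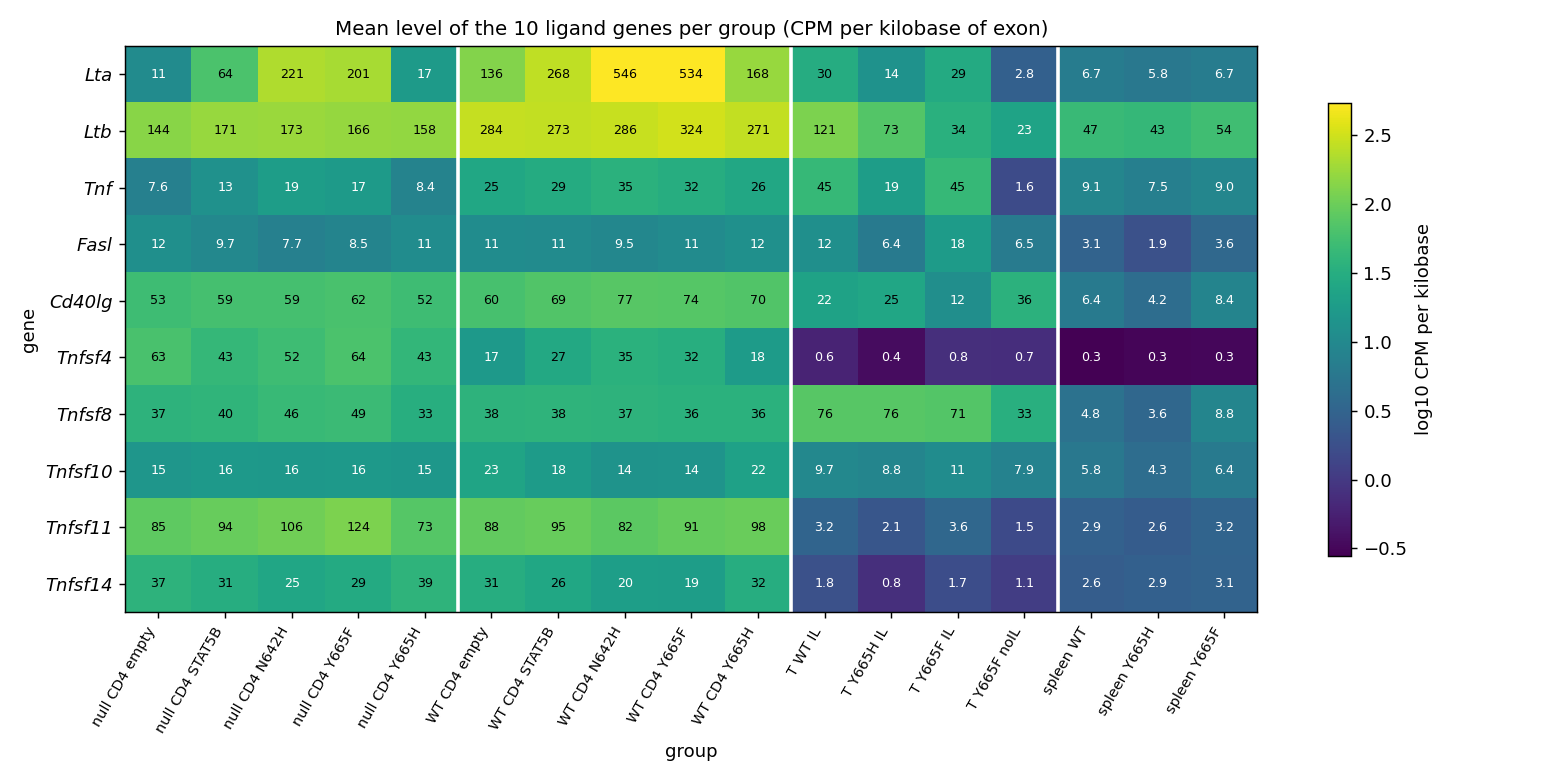
Mean level of each of the 10 ligand genes (rows) in the 17 groups (columns), in CPM per kilobase of exon, with the colour on a log scale. Lta ran from 10.8 in null cells with the empty vector to 546 in WT cells with N642H, while Ltb stayed between 144 and 324 in all CD4+ groups.

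In Stat5a/b-null CD4+ cells, Lta rose with STAT5B and further up with N642H and Y665F, Tnf rose with N642H and Y665F by less, and the other 8 ligands gave no call against the empty vector. With the empty vector, Lta, the gene of lymphotoxin alpha, was at 12.01, 14.3 and 18.4 CPM. With STAT5B it was at 109, 97.7 and 58.0 CPM, with N642H at 353, 363 and 200.4 CPM, and with Y665F at 369, 334 and 132 CPM. With Y665H it was at 20.5, 26.4 and 24.4 CPM. Each of these 4 groups lay above the empty vector without overlap, the libraries with N642H and Y665F lay above those with STAT5B, and those with Y665H lay below them.

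A gene was called where the adjusted p of edgeR's quasi-likelihood test was under 0.05 and the log2 fold change was beyond 1 in either direction. STAT5B raised Lta 5.89-fold over the empty vector, with a log2 fold change of 2.56 ± 0.33 (SE) and an adjusted p of 0.00042. It was the only member called, where 0.477% of all genes tested were. N642H raised Lta 20.1-fold (log2 4.33 ± 0.36, adjusted p 6.41e-07). Y665F raised it 18.3-fold (log2 4.197 ± 0.35, adjusted p 8.92e-07). With each of these mutants 2 of the 10 members were called, against 2.88% of all genes for N642H and 2.37% for Y665F. For Y665H the log2 difference in Lta was 0.69 ± 0.32 with an adjusted p of 0.896, and 0 members were called against 0.0249% of genes. The Lta libraries of Y665H and the empty vector did not overlap, but how many of all genes were so separated was not counted. The rise with STAT5B, N642H and Y665F was called again without any 1 library.

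The other member called in these cells was Tnf, encoding the inflammatory cytokine that binds the same receptors as secreted lymphotoxin alpha. It was at 10.1, 10.6 and 16.8 CPM with the empty vector, 32.5, 29.0 and 31.8 CPM with N642H and 30.4, 29.96 and 25.2 CPM with Y665F. The mutant libraries lay above all empty vector libraries. The rise was 2.42-fold with N642H (log2 1.28 ± 0.16, adjusted p 7.98e-05) and 2.24-fold with Y665F (log2 1.16 ± 0.16, adjusted p 0.000221). With STAT5B, at 19.2, 21.7 and 23.4 CPM, Tnf passed on p alone (log2 0.77 ± 0.16, adjusted p 0.0221), and on both criteria without empty vector replicate 3 (1.03, adjusted p 0.000517). Without any other 1 of the 6 libraries compared it no longer passed on p, with log2 values down to 0.62 and adjusted p up to 0.156. Y665H libraries, at 13.2, 13.8 and 14.1 CPM, lay within the range of the empty vector.

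Ltb, the third gene of the cluster and the partner of Lta in the membrane complex, gave group means of 219 ± 24.97, 259.9 ± 53.4, 262 ± 13.0, 240.2 ± 17.4 and 252 ± 54.2 CPM (SD, n = 3) with the empty vector, STAT5B, N642H, Y665H and Y665F. No log2 difference from the empty vector was called. Fasl, the ligand of the death receptor Fas, was at 29.9, 25.1 and 16.7 CPM with the empty vector and 14.04, 14.2 and 16.4 CPM with N642H. That difference passed on p alone (log2 -0.73, adjusted p 0.0335), and of the 6 libraries compared only empty vector replicate 3 could be left out without losing the pass, at adjusted p up to 0.208. So did that of Tnfsf14, which encodes LIGHT, a ligand of HVEM and of the lymphotoxin beta receptor, at 69.0 ± 17.1 against 45.6 ± 6.24 CPM (log2 -0.63, adjusted p 0.0255). It no longer passed without empty vector replicate 1 or N642H replicate 2 or 3, at adjusted p up to 0.224. Cd40lg, which gives help to B cells, Tnfsf8, Tnfsf10, which encodes the death ligand TRAIL, Tnfsf11 and Tnfsf4 spanned 65.1 to 77.2, 124 to 187, 78.3 to 86.7, 163 to 277 and 78.6 to 118 CPM over the group means.

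Against unmutated STAT5B, the question was whether each mutant drove the ligands further. N642H against STAT5B gave 1 member, Lta, with a log2 fold change of 1.77 ± 0.32 and an adjusted p of 0.0352, where 0.0696% of genes were called. This call was lost when any STAT5B library, or N642H replicate 1 or 2, was left out, with adjusted p up to 0.336. Y665F against STAT5B gave a Lta difference of 1.64 ± 0.32 with an adjusted p of 0.101, and 0 members against 0.00994% of genes. With the replicate number as a block, the same difference was 1.60 with an adjusted p of 0.00314, 1 member against 0.194% of genes. It was also called without Y665F replicate 3, at 1.99 with an adjusted p of 0.00236. Y665H against STAT5B also gave 1 member, against 0.149% of genes: Lta was lower, with a log2 fold change of -1.87 ± 0.32 and an adjusted p of 0.0213, a call that did not hold without replicate 1 or 2 of STAT5B, or without replicate 1 or 3 of Y665H, at adjusted p up to 0.128. Between Y665F and N642H 0 members and 0% of genes were called, 0 of 20113 genes, with 181 at an unadjusted p under 0.05. The Lta difference there was -0.13.

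In WT CD4+ cells, which kept their own Stat5a and Stat5b, N642H and Y665F again raised Lta, from a higher level. Lta was at 223, 230.5 and 109.5 CPM with the empty vector, 1056, 813 and 398 CPM with N642H, and 955, 862 and 400.5 CPM with Y665F. All 6 libraries with these mutants lay above all 3 with the empty vector. The STAT5B libraries, at 424, 499 and 188 CPM, and the Y665H libraries, at 314, 273 and 110.4 CPM, overlapped those of the empty vector.

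The log2 rise of Lta in WT cells was 2.03 ± 0.46 with N642H (adjusted p 0.0385) and 1.98 ± 0.46 with Y665F (adjusted p 0.0492). Both calls were lost without any 1 of the empty vector libraries or without replicate 1 or 2 of the mutant, at adjusted p up to 0.215 for N642H and 0.21 for Y665F. With the replicate number as a block the same differences were 1.99 (adjusted p 1.6e-10) and 1.96 (adjusted p 2.08e-10). Replicate 3 held the lowest Lta level in 8 of the 10 CD4+ groups, and in all 5 WT groups. STAT5B against the empty vector gave 0.99 ± 0.45 with an adjusted p of 1, 0 members against 0.00975% of genes. Y665H against the empty vector gave 0 members against 0.00488% of genes, and against STAT5B 0 members against 0.00488%.

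Tnfsf4 was the further member that rose in WT cells. It was at 29.99, 31.2 and 32.7 CPM with the empty vector, 71.2, 65.9 and 56.4 CPM with N642H, and 54.8, 74.7 and 46.8 CPM with Y665F, with no overlap between either mutant and the empty vector. STAT5B libraries, at 48.7, 54.3 and 46.7 CPM, also lay above the empty vector. N642H gave a log2 fold change of 1.06 ± 0.17 (adjusted p 0.00421), so that 2 members were called against 0.985% of genes. Without N642H replicate 1 the change was 0.99 and no longer passed the minimum. Y665F gave 0.91 ± 0.16 (adjusted p 0.0137), past on p alone, leaving Lta as the 1 member called against 0.707% of genes. Without Y665F replicate 3 it gave 1.03 and was called, and without empty vector replicate 1 or 2 or Y665F replicate 2 it no longer passed on p, at adjusted p up to 0.0927. For STAT5B the log2 difference was 0.68 with an adjusted p of 0.82.

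Other ligands in the WT cells lay lower with the activating mutants without reaching the minimum of change. Tnfsf10 was at 139, 129 and 102 CPM with the empty vector, 73.1, 78.04 and 62.6 CPM with N642H and 81.2, 82.3 and 59.6 CPM with Y665F, with no overlap. Its log2 differences were -0.77 ± 0.14 (adjusted p 0.0109) and -0.72 ± 0.14 (adjusted p 0.0218). Both missed the threshold on p without empty vector replicate 1 or 2 or without mutant replicate 1, and that of Y665F also without Y665F replicate 2, at adjusted p up to 0.068 for N642H and 0.108 for Y665F. For Tnfsf14 the differences were -0.65 (adjusted p 0.27) and -0.68 (adjusted p 0.19). Tnf, at 40.8, 47.2 and 36.3 CPM with the empty vector, had group means of 57.5 ± 9.99 CPM with N642H and 51.8 ± 12.5 CPM with Y665F, and neither was called. Ltb means lay between 410.2 and 492 CPM over all 5 vectors.

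Against STAT5B in WT cells, N642H gave 0 members (0.00488% of genes) and Y665F gave 0 members (0% of genes, with 632 genes at an unadjusted p under 0.05). The Lta differences were 1.03 ± 0.45 and 0.99 ± 0.45, each with an adjusted p of 1. With the replicate block Lta was called in both, at 1.04 (adjusted p 1.56e-05, against 0.458% of genes) and at 1.01 (adjusted p 3.28e-05, against 0.215% of genes).

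**Figure D2:**
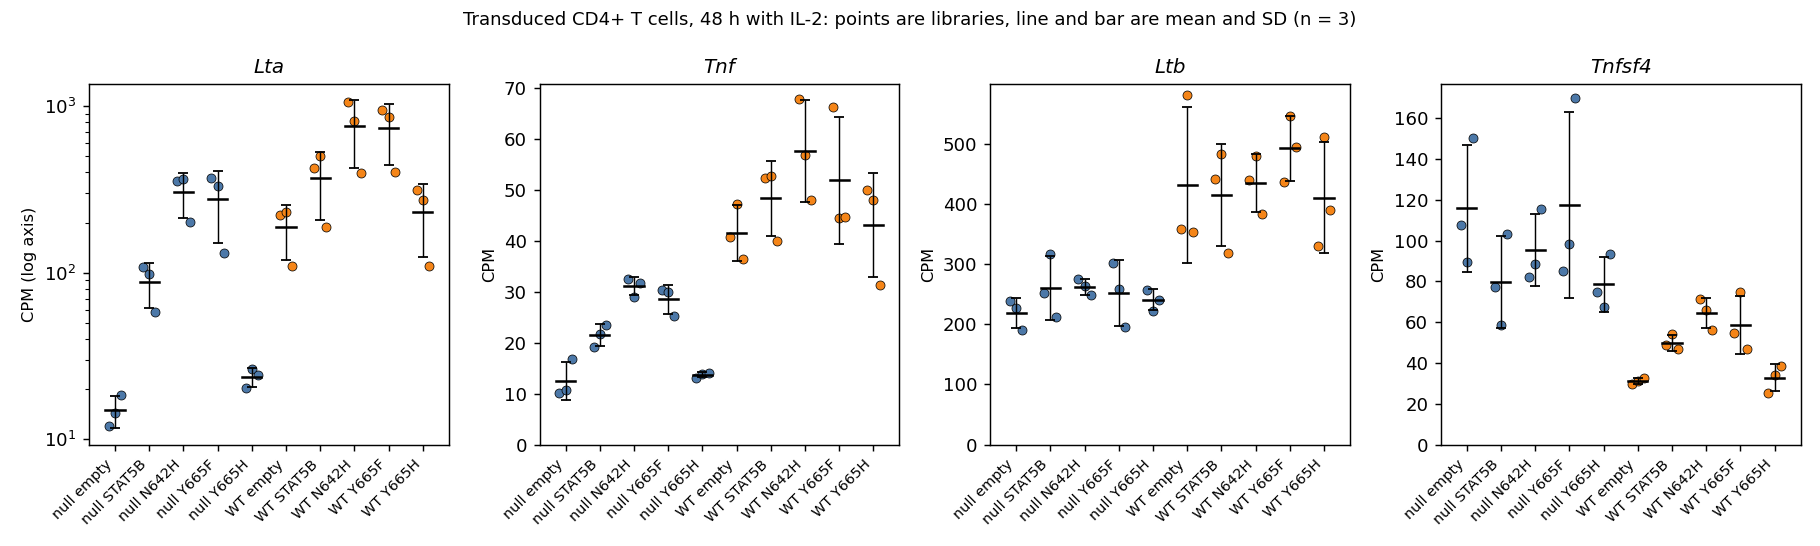
Levels of Lta (log axis), Tnf, Ltb and Tnfsf4 in CPM in each of the 3 libraries of the 10 CD4+ groups, with the group mean as a bar and the SD as an error bar. Lta with Y665H in null cells, at 20.5 to 26.4 CPM, sits just above the empty vector at 12.01 to 18.4 CPM, a difference that was not called, and far below Y665F at 132 to 369 CPM.

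Deletion of Stat5a/b itself, read from the empty vector in both backgrounds, moved 3 members, against 4.68% of genes, in opposite directions. Lta was lower in null cells by a log2 difference of -3.66 ± 0.47 (adjusted p 4.0e-06) and Tnf by -1.73 ± 0.19 (adjusted p 5.68e-07). Tnfsf4, at 108, 89.3 and 150.2 CPM in null cells and 29.99 to 32.7 CPM in WT cells, was higher by 1.89 ± 0.24 (adjusted p 2.99e-06). Null and WT libraries did not overlap for any of these 3 genes. Ltb passed on p alone (log2 -0.98 ± 0.19, adjusted p 0.0009), and was called without null replicate 1 (-1.05) or WT replicate 1 (-1.09) or 3 (-1.08). The median log2 difference of all genes in this comparison was -0.12.

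In the order of mean levels over the 10 CD4+ groups, the 7 highest for Lta were WT cells with N642H, Y665F and STAT5B, null cells with N642H and Y665F, and WT cells with Y665H and the empty vector. Each of these 7 overlapped its neighbour. Null cells with STAT5B, with Y665H and with the empty vector followed, each without overlap with the next. For Tnf the 5 WT groups stood on top, each overlapping its neighbour, and null cells with N642H and Y665F came next.

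Whether the response to a vector differed between backgrounds was tested as an interaction. Without a block 0 members were called for STAT5B (0.1% of genes), N642H (0.341%) or Y665F (0.419%). On the log2 scale, the Lta response was greater in null than in WT cells by 1.59 ± 0.60 for STAT5B (adjusted p 0.94), by 2.35 ± 0.60 for N642H (adjusted p 0.0872) and by 2.25 ± 0.60 for Y665F (adjusted p 0.121). Without WT empty vector replicate 3 Lta was called for N642H (2.604, adjusted p 0.035) and Y665F (2.51, adjusted p 0.0468), and for Y665F also without null Y665F replicate 3 (2.58, adjusted p 0.0299). For Tnfsf4 the interactions were negative, at -1.21, -1.32 ± 0.32 and -0.89, with adjusted p of 0.32, 0.0679 and 0.37, and that for N642H was called without null empty vector replicate 2 (-1.50, adjusted p 0.0389). With the replicate number as a block within each background, Lta was called for all 3 vectors, at 1.54 (adjusted p 0.00351), 2.30 (adjusted p 4.23e-06) and 2.16 (adjusted p 1.48e-05). Tnfsf4 was called with the block for STAT5B (-1.21, adjusted p 0.000318) and N642H (-1.29, adjusted p 5.32e-05). That made 2, 2 and 1 members against 0.519%, 1.57% and 1.34% of genes. Since the comparisons share the empty vector libraries, their values are given side by side only.

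Across the 30 CD4+ libraries, the gene whose log2(CPM + 1) followed that of Lta most closely was Rragd (Pearson r = 0.986), a Rag GTPase of amino acid sensing, ahead of Fsd1l (0.984), Map2k3 (0.974), a kinase upstream of p38, Hemk1 (0.972) and Emp1 (0.971), among 11458 genes. Tnf had r = 0.928 with Lta and Ltb 0.7102, and Tnfsf14 had -0.793. These are descriptions over libraries that share groups and replicate numbers, and carry no test.

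Among the 8 other ligands of the superfamily, from Cd70 to Eda, 0 were called in any of the 26 comparisons. Between 0% and 5.28% of all genes were called in them, so a count of 0 lies near that share. Of 26 receptors, 3 were called with N642H and 3 with Y665F against the empty vector in null cells, 2 higher and 1 lower each time. The shares of all genes were 2.88% and 2.37%. Tnfrsf13b, the receptor TACI, rose by 1.15 ± 0.26 on the log2 scale with N642H (adjusted p 0.00771) and by 1.04 with Y665F (adjusted p 0.0167). Cd27, the receptor of Cd70 that marks naive and memory T cells, fell from 161 to 78.4 CPM with N642H (log2 -1.08 ± 0.14, adjusted p 0.000116) and to 81.5 CPM with Y665F (log2 -1.01, adjusted p 0.000224). In null against WT cells 3 receptors were higher and 2 lower, against 4.68% of all genes. Tnfrsf13c, the BAFF receptor, was higher by 1.54 (adjusted p 0.00925), Cd27 by 1.33 (adjusted p 7.75e-06) and Tnfrsf14, the HVEM to which LIGHT binds, by 1.12 (adjusted p 0.000658). Tnfrsf13b was lower, at -1.06 (adjusted p 0.0223), as was Tnfrsf18, the costimulatory receptor GITR, at -1.01 (adjusted p 5.27e-05). Tnfrsf18 was also called in the interactions of N642H and Y665F, at 1.02 and 1.14. Of 23 genes of TRAF, NF-kB and death signalling, 0 were called in any comparison of CD4+ cells. That count too lies near the share of all genes, 0% to 4.68% in these comparisons.

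In splenic T cells of Y665F mice, 24 h with IL-2 and IL-7 went with higher Tnf, Lta, Fasl and Tnfsf8 and lower Cd40lg than no interleukin, 5 of the 10 members against 2.97% of genes. The labels give no hours of culture for the cells without interleukin. In a passage on Y665F against Y665H, the paper describes T cells sequenced directly after isolation, so these cells may not have been cultured. Interleukins and time in culture thus cannot be told apart here. Tnf was at 104, 97.7, 33.5 and 57.4 CPM with interleukins and at 2.57, 2.67 and 2.48 CPM without, where it rested on 24 to 37 reads a library. The ratio was 28.6-fold (log2 4.84 ± 0.44, adjusted p 3.29e-07). Lta was at 40.7, 43.3, 29.0 and 45.4 CPM with interleukins and 2.46, 4.66 and 4.69 CPM without, on 23 to 70 reads a library, a 9.96-fold difference (log2 3.32 ± 0.31, adjusted p 5.14e-07). For both genes the groups did not overlap, and the calls held without any 1 library, with log2 values of 4.62 to 5.07 for Tnf and 3.06 to 3.46 for Lta.

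Fasl was at 42.4, 36.3, 26.2 and 35.5 CPM with interleukins and 12.5, 10.7 and 14.8 CPM without (log2 1.48 ± 0.33, adjusted p 0.00949). Tnfsf8 was at 284, 326, 224 and 247 CPM against 70.2, 221 and 90.2 CPM (log2 1.09 ± 0.30, adjusted p 0.0424). These groups did not overlap either, but the highest interleukin-free library for Tnfsf8, at 221 CPM, came close to the lowest treated one, at 224 CPM. Cd40lg, at 17.8, 22.0, 8.54 and 11.6 CPM against 40.4, 30.2 and 65.5 CPM, was lower (log2 -1.57 ± 0.31, adjusted p 0.00309). The Tnfsf8 call was lost without interleukin replicate 1, 2 or 4 or interleukin-free replicate 1 or 3, that of Fasl without interleukin-free replicate 1 or 2, and that of Cd40lg without interleukin-free replicate 3. Adjusted p then ran up to 0.319 for Tnfsf8, 0.080 for Fasl and 0.0617 for Cd40lg. Tnfsf8 was also not called with RLE size factors (0.94), filterByExpr (0.96), DESeq2 (0.94) or the groups fitted alone (1.03), which left 4 members. The median log2 difference of all genes was -0.13, and that of the members was 0.88.

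Beside these values, Cd8a stood at 439.5 to 826 CPM with and 232 to 363 CPM without interleukins, and Cd4 at 79.0 to 218 and 154 to 326 CPM. Natural killer cell genes summed to 160.1 to 251 CPM with and 87.9 to 158 CPM without interleukins, and their part in Fasl was not tested. Per 100 CPM of Cd4, Cd40lg was at 8.18 to 10.8 CPM with interleukins and 14.9 to 20.1 CPM without. Per 100 CPM of the T cell list, Tnf was at 4.01 to 4.81 CPM with and 0.110 to 0.190 CPM without. The part of cell shares in these differences was not tested. Without Y665F replicate 3, the library with the most B cell and erythroid reads, Tnf gave 5.07 and Lta 3.43 on the log2 scale, and without replicate 4 they gave 4.94 and 3.25.

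Between the genotypes with interleukins, Y665F against Y665H gave 4 called members, against 4.78% of genes. Since Y665H replicate 4 repeats replicates 1 and 2, these calls rest on fewer separate libraries than the fit assumed. Lta, Tnf and Fasl were higher in Y665F and Cd40lg was lower. Lta in Y665H libraries was at 22.3, 12.2, 21.5 and 18.8 CPM, all below the 29.0 CPM of the lowest Y665F library (log2 1.07 ± 0.25, adjusted p 0.0125). Tnf in Y665H was at 32.5, 28.2, 32.8 and 31.4 CPM, all just below the lowest Y665F library at 33.5 CPM (log2 1.23 ± 0.33, adjusted p 0.0241). Fasl, at 4.85, 16.5, 19.0 and 9.32 CPM, stayed below the 26.2 CPM of the lowest Y665F library (log2 1.49 ± 0.31, adjusted p 0.00469). Cd40lg in Y665H was at 23.98, 33.5, 39.9 and 27.95 CPM, all above the highest Y665F library at 22.0 CPM (log2 -1.04 ± 0.30, adjusted p 0.0382).

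Fasl was called without any 1 library, with log2 values of 1.27 to 1.84. Leaving out Y665H replicate 1 or 2 kept its reads in replicate 4, so such a fit does not show what the call owes to them. Only the fit without Y665H replicate 4 held separate libraries alone. There Lta and Fasl stayed called, and Tnf and Cd40lg did not. Lta lost its call without Y665H replicate 2 (0.93) or Y665F replicate 4 (just below 1), and Tnf without Y665H replicate 2 or 4 or Y665F replicate 1 or 2, at adjusted p up to 0.0696. Cd40lg lost it without Y665H replicate 2, 3 or 4 or Y665F replicate 1, 3 or 4, at adjusted p up to 0.129. Per 100 CPM of Cd4, Cd40lg overlapped between the genotypes, at 9.19 to 12.4 CPM in Y665H and 8.18 to 10.8 CPM in Y665F. Per 100 CPM of the T cell list the genotypes came close without overlap, at 1.0814 to 1.71 CPM and 0.773 to 1.0807 CPM. On that scale Lta was at 0.564 to 1.00 CPM in Y665H and 1.76 to 3.46 CPM in Y665F. Natural killer cell genes summed to 53.1 to 111 CPM in Y665H and 160.1 to 251 CPM in Y665F libraries, with Klra8 at 0 in all, and their part in Fasl was not tested. Without the 3 shallow libraries, Tnf and Fasl stayed called, while Lta (1.14, adjusted p 0.0507) and Cd40lg (-0.95, adjusted p 0.183) did not. That fit still held the reads of Y665H replicates 1 and 2 through replicate 4, so it cannot show what the calls owe to them.

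Against WT splenic T cells 0 members were called for Y665F (1.53% of genes) and 0 for Y665H (0.0717% of genes). WT Lta was at 33.4, 47.2, 55.1 and 31.7 CPM, overlapping Y665F and above all Y665H libraries, with a log2 difference for Y665H of -1.14 ± 0.25 (adjusted p 0.116). WT Tnf, at 49.3, 93.7, 119 and 35.3 CPM, also lay above Y665H (log2 -1.25 ± 0.33, adjusted p 0.19). DESeq2 called both of these Y665H differences, in a fit that held Y665H replicate 4 beside replicates 1 and 2. Ltb was spread widely, at 64.7, 157, 396 and 118 CPM in WT and 90.0, 73.3, 10.7 and 33.9 CPM in Y665F libraries (log2 -1.80 ± 0.55, adjusted p 0.0884), and the groups overlapped. It was called without WT replicate 1 (-2.08, adjusted p 0.037) or Y665F replicate 1 (-2.17, adjusted p 0.0343). Tnfsf4, Tnfsf11 and Tnfsf14 had group means of at most 1.45, 7.96 and 3.37 CPM in splenic T cells, resting on as few as 1, 5 and 1 reads in the shallow libraries. None of them was called there. Without the shallow libraries Tnfsf11 was called for interleukins against none, at 1.29 (adjusted p 0.0343), as a 6th member.

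**Figure D3:**
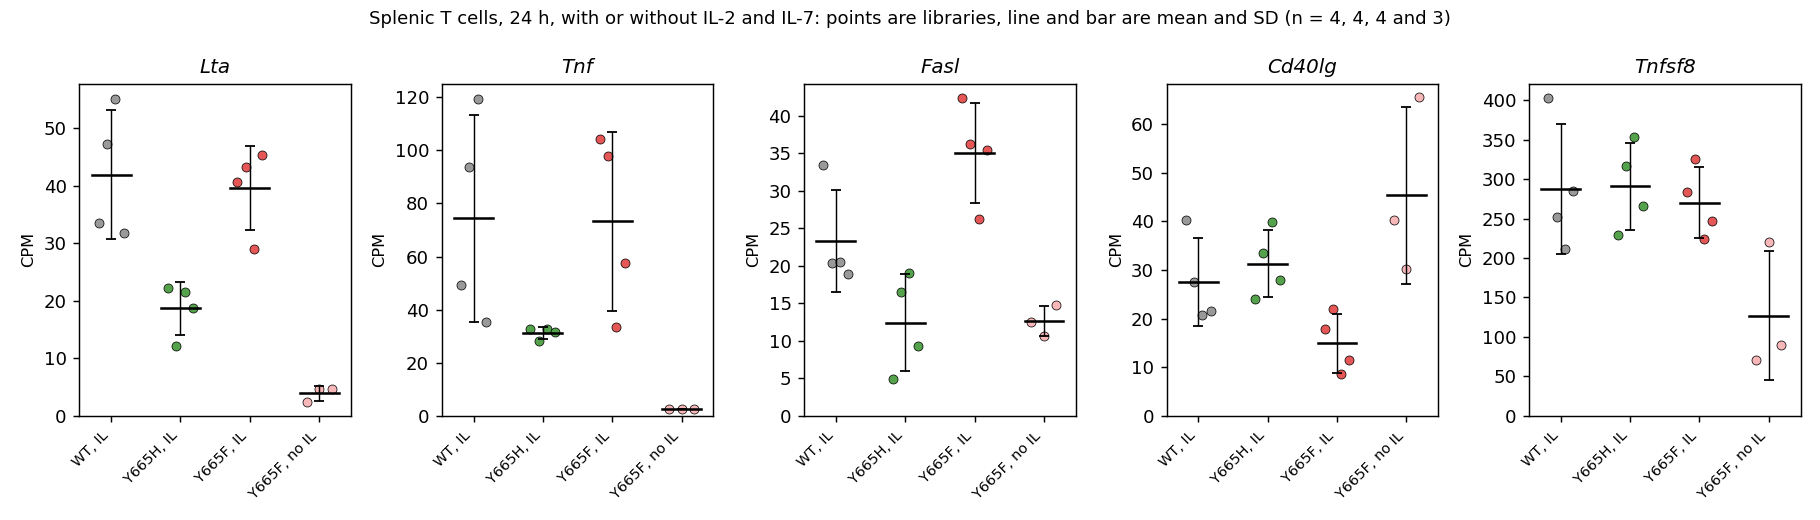
Levels of Lta, Tnf, Fasl, Cd40lg and Tnfsf8 in CPM in each splenic T cell library, by group, with the group mean as a bar and the SD as an error bar. Without interleukin the Y665F libraries are at 2.48 to 2.67 CPM for Tnf and highest for Cd40lg, at 30.2 to 65.5 CPM. The 24 h in the title holds for the cells with interleukins. The hours without interleukin are not given, and those cells may not have been cultured. Y665H replicate 4 repeats the reads of replicates 1 and 2.

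Of 26 receptors, 3 were called higher in Y665F than in Y665H splenic T cells and 0 lower, where 4.78% of all genes were called. The 3 receptors were not all named by the rule used here. They included Tnfrsf9, a costimulatory receptor of activated T cells (13.1 against 87.1 CPM, log2 2.75 ± 0.37, adjusted p 9.98e-05), and Cd40, the receptor of Cd40lg (0.4928 against 4.10 CPM, log2 2.78 ± 0.63, adjusted p 0.00867). Cd40 is also a B cell gene, and the sum of B cell genes in the Y665F libraries was 19.8, 36.0, 578 and 161 CPM, against 27.4 to 40.3 CPM in Y665H. Of 23 signalling genes 3 were higher and 0 lower: Tnfaip3 (97.1 against 354 CPM, log2 1.86 ± 0.35, adjusted p 0.00209) and Nfkbia (87.6 against 229 CPM, log2 1.38 ± 0.34, adjusted p 0.0148), which both restrain NF-kB, and the NF-kB subunit Rel (44.1 against 102 CPM, log2 1.19 ± 0.30, adjusted p 0.0168). With interleukins against none, the receptors Tnfrsf9 (2.89), Tnfrsf18 (2.38) and Tnfrsf4 (1.49), the receptor of Tnfsf4, rose on the log2 scale, with adjusted p of 8.06e-05, 0.000686 and 0.00203. The signalling gene Nfkb2, another NF-kB subunit, rose by 1.52 (adjusted p 0.0178). In that comparison 2.97% of all genes were called. Against WT, Y665F gave 1 receptor, Cd40 (log2 2.19, adjusted p 0.0364), and 1 signalling gene, where 1.53% of all genes were called.

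In spleen, Tnfsf8 was the ligand that set the Y665F libraries apart, and the 3 further ligands that passed on p were ordered Y665H, WT, Y665F by their means. Tnfsf8 was at 31.1 to 37.4 CPM (median 33.6) in the 7 Y665F spleens, at 19.3, 19.6, 16.9 and 17.7 CPM in WT and at 15.1, 11.3, 14.2, 12.9 and 14.1 CPM in Y665H. No library of one genotype overlapped another. Y665F against Y665H gave a log2 fold change of 1.32 ± 0.08 (adjusted p 2.08e-08), the 1 member called against 5.28% of genes, and it lay between 1.26 and 1.35 without any 1 library. Against WT it was 0.87 ± 0.09 (adjusted p 1.55e-05), below the minimum of change. Y665F against WT therefore had 0 members called against 1.2% of genes, or 1 on the adjusted p alone, against 12.2%.

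Y665H against WT likewise gave 0 called members against 4.37% of genes, but 4 on the adjusted p alone, against 19.8%, all lower in Y665H. Fasl was at 6.30, 6.30, 5.86 and 5.74 CPM in WT and 4.17, 4.07, 3.54, 3.25 and 2.94 CPM in Y665H, without overlap (log2 -0.75 ± 0.14, adjusted p 0.00222). Tnfsf8 differed by -0.44 ± 0.09 (adjusted p 0.00339), Tnfsf10 by -0.45 ± 0.09 (adjusted p 0.00358) and Cd40lg, whose libraries overlapped, by -0.60 ± 0.16 (adjusted p 0.0137). Cd40lg no longer passed without WT replicate 2 (-0.39, adjusted p 0.0963), while the other 3 passed without any 1 library. Without Y665H replicate 1, these 4 differences were -0.77 for Fasl, -0.45 for Tnfsf8, -0.46 for Tnfsf10 and -0.66 for Cd40lg.

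On the adjusted p alone 4 members differed between Y665F and Y665H spleens, against 25.8% of genes. Beside Tnfsf8 these were Cd40lg, at 9.16 to 11.98 CPM in Y665F and 4.30 to 6.67 CPM in Y665H (log2 1.00 ± 0.14, adjusted p 0.000123), Fasl (0.97 ± 0.12, adjusted p 3.83e-05) and Tnfsf10 (0.58 ± 0.08, adjusted p 0.000105). Neither Fasl nor Tnfsf10 overlapped, with Y665F at 5.70 to 9.42 CPM for Fasl and 31.6 to 40.5 CPM for Tnfsf10, and Y665H at 2.94 to 4.17 and 19.2 to 25.5 CPM. Both Cd40lg and Fasl lay at the minimum of change, and each passed it when some single libraries were left out, with values up to 1.07 for Cd40lg and 1.03 for Fasl. Without Y665H replicate 1 both passed. All 10 members had a positive log2 difference in this comparison, with a median of 0.34. So did 23 of 23 signalling genes (median 0.21), 18 of 26 receptors (median 0.24) and 4 of 8 other ligands (median -0.05). The one direction was thus not particular to the members. The median over all genes was -0.011. Lta, Tnf and Ltb did not differ in order of genotype beyond their spread: Lta was at 7.74 to 10.4 CPM in WT, 6.25 to 13.2 CPM in Y665H and 6.02 to 11.7 CPM in Y665F spleens.

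The sum of the T cell list moved with these ligands, at 582 to 694 CPM in WT, 404 to 616 CPM in Y665H and 737 to 1027 CPM in Y665F spleens, and natural killer cell genes were at 70.8 to 92.8, 29.5 to 45.2 and 35.5 to 83.7 CPM. Erythroid genes moved the other way in Y665H, at 716 to 1586 CPM in WT, 3594 to 5126 CPM in Y665H without replicate 1, and 448 to 1475 CPM in Y665F. Neutrophil genes were at 198 to 319 CPM in WT, 377 to 1548 CPM in Y665H without replicate 1, which held 121.5 CPM, and 392 to 961 CPM in Y665F. The part of these cells in the differences was not tested. Per 100 CPM of the T cell list, Tnfsf8 was at 2.55 to 3.32 CPM in WT, 2.45 to 3.39 CPM in Y665H and 3.03 to 4.25 CPM in Y665F, so that all 3 ranges overlapped. Fasl per 100 CPM of the list was at 0.827 to 1.08, 0.677 to 1.01 and 0.678 to 1.01 CPM, and Cd40lg at 1.07 to 1.68, 1.03 to 1.28 and 1.08 to 1.34 CPM. Per 100 CPM of Cd4 instead, Tnfsf8 was at 14.9 to 17.2 CPM in WT, 11.7 to 17.8 CPM in Y665H and 18.8 to 27.4 CPM in Y665F, above both others without overlap. On this scale Fasl was at 4.84 to 5.60, 3.22 to 4.72 and 4.05 to 6.71 CPM, and Cd40lg at 5.80 to 8.76, 5.14 to 6.34 and 6.76 to 8.16 CPM. Here Fasl did not overlap between WT and Y665H, nor Cd40lg between Y665H and Y665F. Which ranges overlapped thus differed with the denominator. These ratios were chosen after the values were seen, and the part of T cell share in the differences was not tested further.

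**Figure D4:**
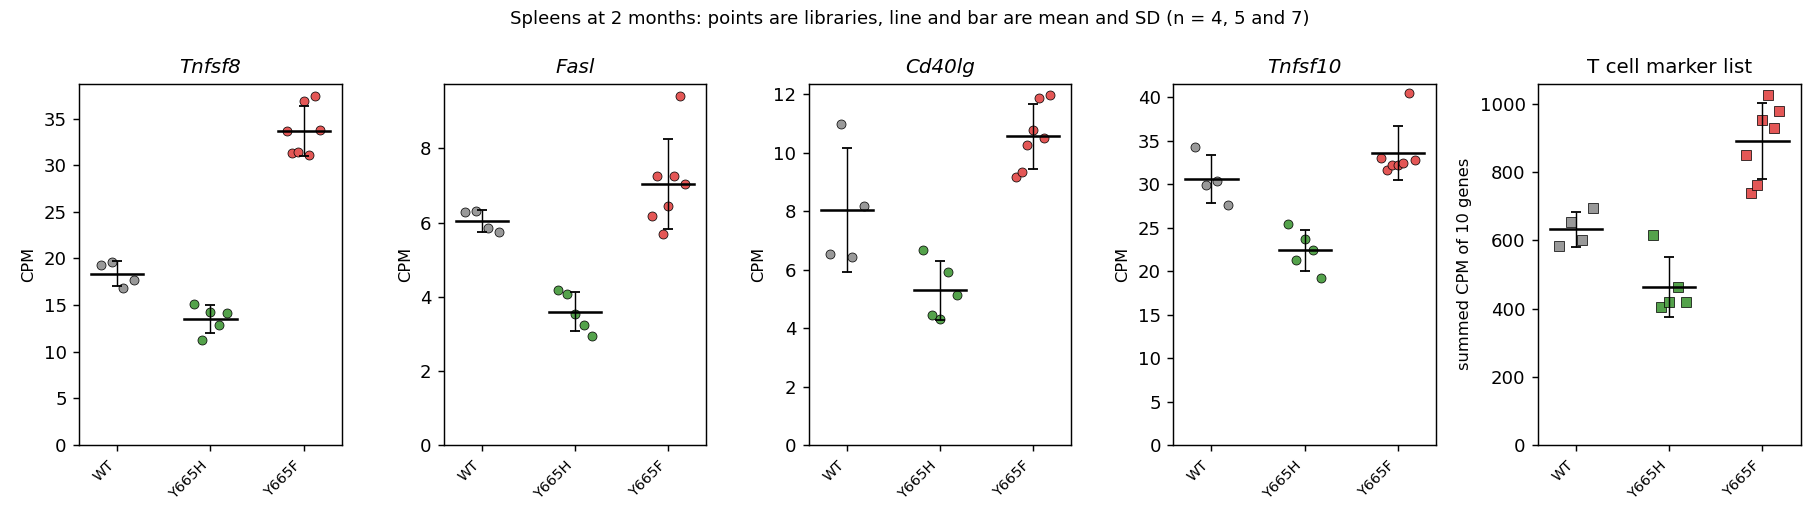
Levels of Tnfsf8, Fasl, Cd40lg and Tnfsf10 and the summed level of 10 T cell genes, in CPM, in each spleen library by genotype, with the group mean as a bar and the SD as an error bar. The 7 Y665F spleens, at 31.1 to 37.4 CPM of Tnfsf8, lie above all WT and Y665H spleens, and their T cell sum of 737 to 1027 CPM also lies above both.

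Of the receptors in spleen, Tnfrsf25, a costimulatory death-domain receptor of T cells, was higher in Y665F than in WT (9.52 against 4.52 CPM, log2 1.07 ± 0.18, adjusted p 0.00137). Tnfrsf17, the plasma cell receptor BCMA, was 1 of 2 called higher in Y665H than in WT (3.29 against 1.57 CPM, log2 1.06 ± 0.25, adjusted p 0.00627). Cd27 was higher in Y665F than in Y665H (60.6 against 28.8 CPM, log2 1.07 ± 0.12, adjusted p 1.39e-05). Of the 23 signalling genes 0 were called in any spleen comparison. The shares of all genes called were 1.2% for Y665F against WT, 4.37% for Y665H against WT and 5.28% for Y665F against Y665H, and a count of 0 lies near them.

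**Figure D5:**
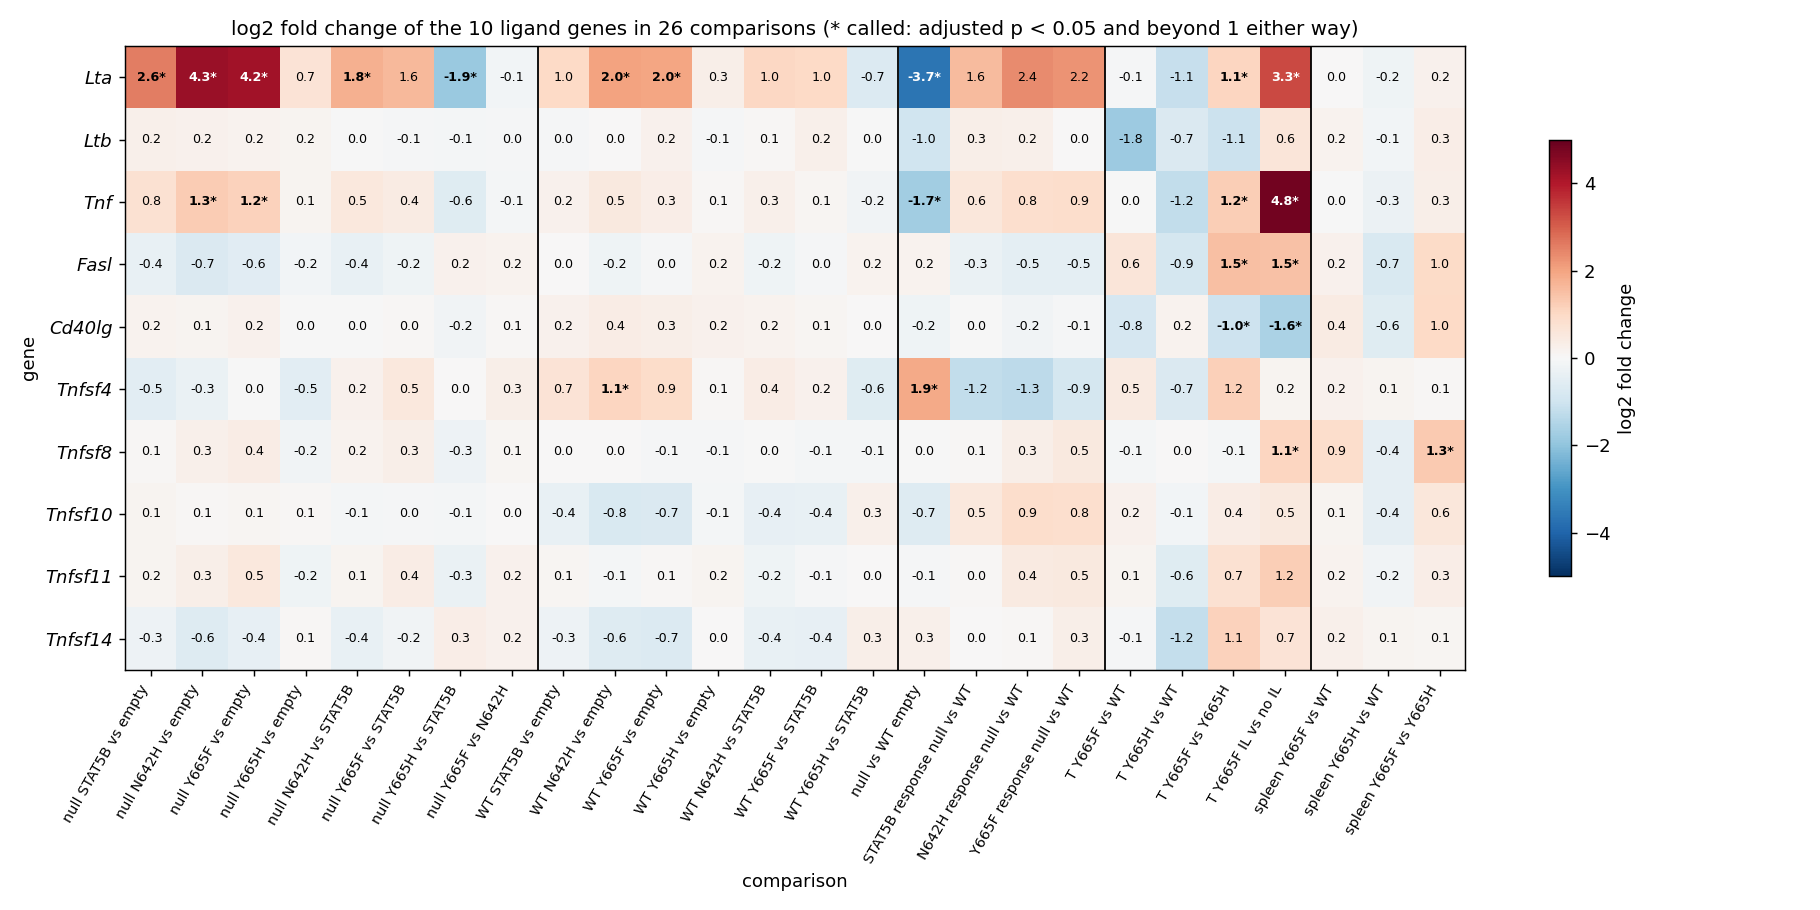
Log2 fold change of the 10 ligand genes (rows) in the 26 comparisons (columns), with a star where a gene was called. In the CD4+ columns the stars fall on Lta, Tnf and Tnfsf4, in the splenic T cell columns on Lta, Tnf, Fasl, Cd40lg and Tnfsf8, and in spleen on Tnfsf8.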

How the data were processed

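Total RNA depleted of ribosomal RNA was sequenced with a stranded kit. After trimming, the authors aligned reads to mm10, counted them by gene and deposited raw counts per library without normalization. The submitters' processing notes name FastQC 0.11.9, Trimmomatic 0.36, STAR, SAMtools 1.9, Picard 2.9.2 and HTSeq 0.9.1, and the authors tested with DESeq2. The strand setting of the counting is not given in the sources used here. The 5 closing lines of each file, for reads without a gene, were left out. The authors' further adjustment with RUVSeq was not repeated here.

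From these counts, edgeR 4.0.16 and limma 3.58.1 in R 4.3.3 were run on 5 sets of libraries: null CD4+ cells, WT CD4+ cells, both together, splenic T cells and spleens. Genes with at least 10 reads over a set entered, with TMM factors, glmQLFit, glmQLFTest and Benjamini-Hochberg adjustment over all genes of the set. Calls needed an adjusted p under 0.05 with a log2 change beyond 1. The SE of a log2 change is that change over the square root of its F. CPM use TMM-scaled library sizes, over all 30 libraries for CD4+ cells, and length is the union of exons in GENCODE M21. The fits were tested on simulated data. Depth limits low genes, since 1 CPM is about 2 reads in the library of 2017012 reads. Intervals of counting were not used because groups had replicates.

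Replicate numbers come from the titles. In CD4+ cells the deviations of same-numbered libraries from their group means correlated above 0.1 in 30 of 30 pairs in null cells (lowest 0.240, median 0.462) and in 30 of 30 in WT cells (lowest 0.116, median 0.633), so the number was taken to pair them, and values with it as a block are given where they change a call. The main fits and those without 1 library hold no block, so differences between replicate numbers stay in their spread.

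The members, pathway lists and marker lists were chosen with earlier results of these data known. All members are named. Pathway genes are named where called with a mean of at least 1 CPM and no overlap of libraries, up to 3 in each direction per list. The 5 genes most like Lta were taken by Pearson r. Alternatives were DESeq2 1.42.0, its size factors in edgeR (RLE), filterByExpr, no filter, the block, groups fitted alone, no minimum of change, the 3 shallow splenic T cell libraries left out, and each replicate left out. Leaving out Y665H splenic T cell replicate 1 or 2 does not remove its reads, which replicate 4 holds too.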

Additional observations from a re-analysis of the deposited data

Results flagged for a closer look

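Of 60 sets of a member in a group of 4 to 10 libraries, 4 held a library whose gap to its nearest neighbour passed Dixon's 95% criterion, and chance passes about 1 in 20 such sets. Lta in spleen Y665H replicate 1 was at 13.2 CPM, with the nearest library at 7.44 CPM. The same library stood apart with 769 CPM of erythroid genes. Fasl in WT splenic T cells with interleukins was at 33.4 CPM in replicate 1 and at 20.6 CPM in the nearest library. In spleen Y665F replicate 6, Fasl was at 9.42 CPM against 7.25 CPM in the nearest library, and Tnfsf10 was at 40.5 CPM against 33.0 CPM. Both of these were the highest values among the Y665F spleens, on the side of the difference from Y665H.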

How the results depend on the processing

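Fold changes were followed only for members called in the main fit, called with another setting or named for the text. None of these reversed, and the remaining pairs of member and comparison were not checked for a reversal. Of the followed fold changes recomputed with 1 choice changed, 313 kept their side of the threshold, 22 gained a call and 9 lost one. With the replicate block, members called became 1 in place of 0 for Y665F against STAT5B in null cells and for N642H and Y665F against STAT5B in WT cells, and 2, 2 and 1 in place of 0 in the interactions of STAT5B, N642H and Y665F. The block changed the count in splenic T cells (6 of 21 pairs correlated) to 3 for Y665F against Y665H, where Cd40lg gave -1.06 (adjusted p 0.0661), and in spleens (4 of 13 pairs) no count. No block could be fitted for null against WT cells, since numbers are nested in background. DESeq2 called 1 member for Y665F against STAT5B in null cells, 2 and 1 in the N642H and Y665F interactions, 2 for Y665H against WT splenic T cells and 2 for Y665F against Y665H spleens. Without a filter 1 was called for Y665F against STAT5B in null cells and 1 in the N642H interaction, filterByExpr left 0 for N642H against STAT5B in null cells, groups fitted alone gave 2 in the N642H interaction and 2 for Y665F against Y665H spleens, RLE factors gave 2 there, and leaving out the 3 shallow libraries left 2 of 4 for Y665F against Y665H splenic T cells. Without a minimum of change, counts were 2, 4 and 3 for STAT5B and N642H in null cells and Y665F in WT cells against the empty vector, and 1, 4 and 4 in the spleen comparisons of Y665F with WT, Y665H with WT and Y665F with Y665H. In these spleen comparisons 12.2%, 19.8% and 25.8% of all genes passed that rule. For the other counts of this paragraph, apart from the block in CD4+ cells, the share of all genes is not given. Those counts describe only how the calls depended on processing.

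Leaving out 1 replicate at a time, members called ranged from 3 to 5 for interleukins against none, 1 to 4 for Y665F against Y665H and 0 to 1 for Y665F against WT in splenic T cells, and 1 to 3 for Y665F against Y665H in spleen. In null cells the range was 1 to 2 for STAT5B against empty and 0 to 1 for N642H, Y665F and Y665H against STAT5B. In WT cells it was 0 to 2 for N642H and for Y665F against empty. In the N642H and Y665F interactions it was 0 to 1. The causes were not tested, and the shares of all genes called are not given for these fits. Over all genes, counts of calls moved beyond 1.5 times in 18 of 25 comparisons with the block, 16 of 26 with DESeq2 and 76 of 195 fits without 1 replicate. The 3 shallow splenic T cell libraries held 2017012 to 3310342 reads, and without them Tnfsf11 was called for interleukins against none (1.29, adjusted p 0.0343). The reads of Y665H replicates 1 and 2 stayed in that fit through replicate 4.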
